A study of Mus musculus and Homo sapiens with 12 samples.

Results

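Polycomb repressive complex 2 (PRC2) deposits methyl groups on lysine 27 of histone H3, a mark of silenced genes. The results below concern the chromatin-associated RNA (caRNA) of 9 genes that encode its core and accessory subunits: Ezh1, Ezh2, Eed, Suz12, Rbbp4, Jarid2, Aebp2, Mtf2 and Phf19 in mouse, and the genes of the same symbols in capitals in human. The 9 genes were chosen by name as subunits of the complex, with earlier results of these data known, and were found by Ensembl identifier in all 12 libraries, among 54446 mouse and 58676 human genes. RNA bound to chromatin was sheared, and fragments holding 5-methylcytosine (m5C) were captured with an antibody (m5C-IP) and sequenced beside uncaptured fragments (Input). The libraries came from wild-type mouse embryonic stem cells (mESC), grown with LIF, CHIR99021 and PD0325901 and moved off feeder cells before use, and from wild-type K562, a human leukaemia line. The labels put puromycin in the K562 medium, which the study's methods give for derived lines. Each line gave 3 Input and 3 m5C-IP libraries, and no library had another genotype or treatment.

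PRC2 has a catalytic subunit, EZH1 or EZH2, of which EZH2 is the more active methyltransferase. EED reads the finished mark and stimulates the enzyme, SUZ12 holds the complex together, and RBBP4 is a histone-binding chaperone that other chromatin complexes also contain. Accessory subunits define forms of the complex: MTF2 and PHF19 are Polycomb-like proteins that bind CpG-rich DNA, whereas JARID2 and AEBP2 define another form. In embryonic stem cells PRC2 keeps developmental genes silent, and the complex also binds RNA, nascent transcripts among it.

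Gene counts ran from 29007088 to 34752646 per mESC Input library and from 473398 to 592324 per mESC m5C-IP library. In K562 they ran from 10477119 to 11865285 for Input and from 93110 to 111286 for m5C-IP, so that 3 counts in a K562 m5C-IP library stood for 27 to 32.2 CPM (counts per 1000000 gene counts of the library). Genes nested inside a host of at least 1000 Input counts, on the host's strand, had a count in 0 of 748 cases in mESC and 2 of 878 in K562, against 483 of 1040 and 460 of 1393 on the opposite strand. Counts therefore covered whole gene spans, introns included, by strand. Groups were taken from the titles, and the antibody entry contradicts them, reading none for mESC m5C-IP and giving the m5C antibody for K562 Input. The 3 K562 Input libraries differed by about as much as sampling noise alone, since chi-square divided by its degrees of freedom was 0.911, 0.920 and 1.03 for the 3 pairs of libraries. They did differ by GC content, at 20.1 to 85.7 per degree of freedom over 20 bins of genes, and were kept as 3 libraries; no label said that replicates came from separate cultures, so p-values measure only the spread between these libraries.

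The pluripotency genes Pou5f1, Nanog, Zfp42 and Esrrb stood at 70.7 to 796 Input CPM in mESC. Sox2 was listed at 0, and all of its 2057 bp lie inside Sox2ot on the same strand. The fibroblast genes Col1a1 and Col1a2 stood at 18.8 to 30.2 CPM, Col3a1 at 3.77 to 4.79 CPM and Thy1 at up to 1.01 CPM. In K562, GATA1 stood at 85.6 to 88.3 CPM and TFRC at 363 to 379 CPM. HBG1 and HBZ stood at 0.867 to 4.07 CPM, and HBG2 and HBE1 were listed at 0. HBG2, HBE1 and 99.9% of the span of HBG1 lie over another gene on their strand. The lymphoid genes CD79A and CD3E stood at up to 0.0867 and 0.260 CPM. The part of feeder cells in the mESC values was not tested.

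All 9 genes were present in Input caRNA of both lines, and Phf19 in mESC was the 1 gene near the bottom of the scale. Levels between genes were set per kilobase (kb) of the span of the principal transcript, since the counts hold introns, and per kb of exon for comparison. The principal transcript was the longest one tagged as APPRIS principal in mouse, and the Ensembl canonical one in human. In mESC the Polycomb-like gene Mtf2 led at 11.7 ± 0.242 CPM per kb of span (SD, n = 3 here and for the other levels). The scaffold gene Suz12 followed at 7.93 ± 0.0725, Eed at 7.67 ± 0.115 and Jarid2 at 6.45 ± 0.0377. Ezh2 stood at 5.62 ± 0.102, Rbbp4 at 5.42 ± 0.0600, Aebp2 at 3.50 ± 0.119 and Ezh1 at 1.78 ± 0.0608. Phf19 closed the order at 0.104 ± 0.0237 CPM per kb of span, so that Mtf2 stood 112 times above the other Polycomb-like gene. The libraries of no 2 neighbours in this order overlapped, although Suz12 and Eed differed by a ratio of only 1.03 and Ezh2 and Rbbp4 by 1.04.

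In K562 the order was another. PHF19 led at 9.46 ± 0.146 CPM per kb of span, ahead of EZH2 at 5.54 ± 0.0665 and RBBP4 at 5.24 ± 0.0533. SUZ12 stood at 3.08 ± 0.0169 and JARID2 at 2.48 ± 0.0329. MTF2 at 2.07 ± 0.0199, EZH1 at 2.06 ± 0.0686 and EED at 1.99 ± 0.0742 could not be ordered, because the libraries of each overlapped those of the next, and AEBP2 was lowest at 1.21 ± 0.0349. The ratio of Mtf2 to Phf19 per kb of span was thus 112 in mESC and 0.219 in K562, and that of Ezh2 to Eed was 0.733 in mESC and 2.79 in K562. Per kb of exon, Jarid2 led in both lines, at 126 CPM in mESC and 110 CPM in K562 (109.7 ± 1.45), the ratio of Mtf2 to Phf19 was 213 in mESC and 0.677 in K562, and that of Ezh2 to Eed was 1.04 and 4.09. The order thus depended on the length used, and levels of genes whose span exceeds that of the principal transcript were the least certain. The mouse Aebp2 gene spans 55.8 kb but its principal transcript 29.3 kb, and the human gene spans 316.8 kb against 82.7 kb. EED spans 77.6 kb against 34.1 kb, and PHF19 39.2 kb against 21.5 kb. Per kb of whole gene span PHF19 stood at 5.19 CPM, below EZH2 at 5.53 and RBBP4 at 5.23. These levels come from different genomes, annotations and definitions of the principal transcript, and no test was run between lines on them.

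**Figure D1:**
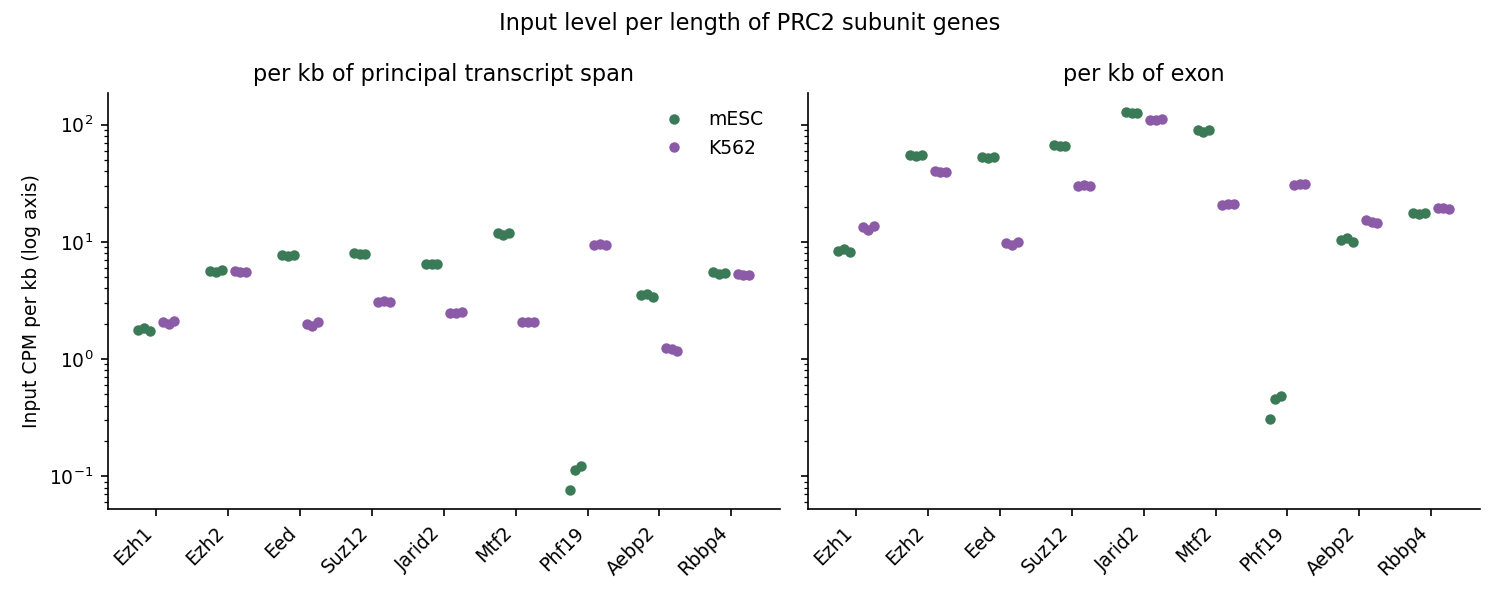
Input level of each PRC2 subunit gene in CPM per kb of principal transcript span (left) and per kb of exon (right), on log axes, with 1 point for each of the 3 Input libraries of mESC (green) and of K562 (purple). Phf19 lies at 0.104 CPM per kb of span in mESC and at 9.46 in K562, whereas Ezh2 lies at 5.62 and 5.54.

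The balance of the alternative catalytic subunits was taken as the share of Ezh1 in Ezh1 plus Ezh2 per length. Per kb of exon, Ezh1 made up 13.3%, 14% and 12.8% in the mESC Input libraries, and 24.9%, 24.5% and 25.5% in the K562 Input libraries. The means were 13.4% ± 0.607 and 25% ± 0.485 (SD, n = 3), a difference of 11.6 percentage points with no overlap of libraries. A two-sided exact permutation test gave p = 0.1, the smallest that 3 libraries against 3 allow. Per kb of principal transcript span the shares were 24.1% ± 0.955 and 27% ± 0.511, which lay only 2.98 points apart, and per kb of coding length the difference was 4.52 points. The annotated exon length of Ezh2 was 6678 bp in mouse and 10774 bp in human, and that of Ezh1 7440 bp and 6988 bp. The size of the difference between lines thus depended on the annotated length used. Ezh2 was the more abundant of the pair in Input on every length.

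In both lines the share of Ezh1 was higher in each m5C-IP library than in each Input library, a difference that 3 libraries against 3 cannot bring past the threshold. In mESC the share per kb of exon was 28.5%, 39.4% and 23.6% in the m5C-IP libraries, a mean of 30.5% ± 8.10 against 13.4% in Input. In K562 it was 30.3%, 33.9% and 33.9%, a mean of 32.7% ± 2.1 against 25%. No m5C-IP library overlapped an Input library in either line, with a difference of 17.1 points in mESC and 7.77 points in K562 (two-sided exact permutation test, p = 0.1 in each, again the smallest possible). The shares rest on 24, 45 and 20 Ezh1 counts in the mESC m5C-IP libraries and on 7 to 11 EZH1 counts per K562 m5C-IP library. Ezh1 had less Input than Ezh2 in both lines, with means of 62.9 against 365 CPM in mESC and 92.0 against 426 CPM in K562. Among the genes tested, those of low Input had higher ratios of m5C-IP to Input. The median log2 ratio of protein-coding genes was −1.81 at 50 Input CPM or more and 2.82 under 10 in mESC. In K562 these medians were −0.50 and 1.32. Ezh1 and Ezh2 both had at least 50 Input CPM in each line, so the medians under 10 cover neither gene. The filter on low counts took Input and m5C-IP libraries together, so genes of low Input could enter through their m5C-IP counts. How far this raised the medians under 10 Input CPM was not tested. How often the share shifts like this in other pairs of genes of unlike level was not tested either.

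**Figure D2:**
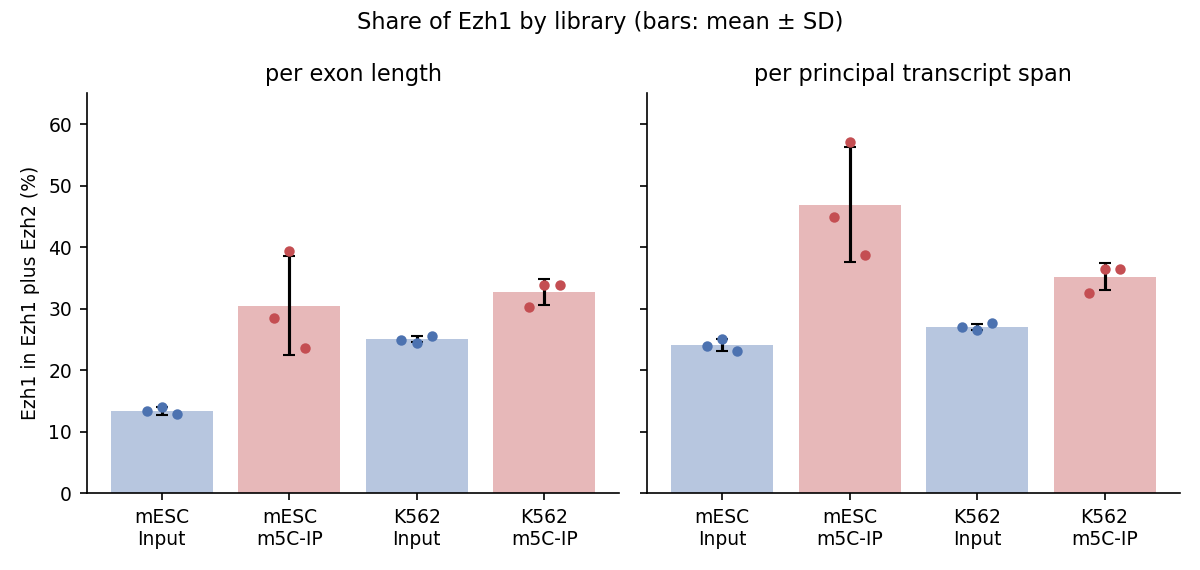
Share of Ezh1 in the sum of Ezh1 and Ezh2, in percent, per exon length (left) and per principal transcript span (right). Bars give the mean of 3 libraries with the SD, and points the libraries; Input is blue and m5C-IP red. The m5C-IP points lie above the Input points in each line and on each length.

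The comparison of m5C-IP with Input asks which caRNAs the m5C antibody recovered more or less than their abundance. In mESC, 8 of the 9 PRC2 genes were lower in m5C-IP and Phf19 was higher (edgeR quasi-likelihood test, adjusted p under 0.05), with log2 IP/Input from −2.77 to 1.68 and a median of −2.26. Over all 20244 genes tested, 42% were lower, 39.9% were higher, and the median was −0.17, so that 48.7% of calls were higher (67.9% on library size alone). This background depends strongly on the level. Of 4620 protein-coding genes with at least 50 Input CPM, a group to which the 8 lower genes belong, 95.2% were lower, with a median of −1.81 and the middle 50% between −2.21 and −1.26. The loss of the 8 genes from the captured RNA was thus what nearly all genes of such level showed, and its size differed among them: Ezh2, Rbbp4, Mtf2, Jarid2 and Eed lay below the middle 50%, Suz12 lay within it, and Ezh1 and Aebp2 above it.

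Among the catalytic subunits, Ezh2 and Ezh1 stood at different ends of that range. Ezh2 had 365, 358 and 371 CPM in the Input libraries and 114, 105 and 97.9 CPM in m5C-IP, with log2 IP/Input of −2.77 ± 0.10 (SE; adjusted p = 1.78e-12, edgeR), the lowest of the 9. Its groups did not overlap. Ezh1 had 62.6, 65.2 and 60.9 CPM in Input and 50.7, 76.5 and 33.8 CPM in m5C-IP, where its libraries spread over a range of 2.27 times and overlapped Input. Its log2 IP/Input was −1.20 ± 0.20 (adjusted p = 4.43e-05, edgeR). A CPM ratio and a log2 value differ because the fit scales libraries by TMM, the trimmed mean of log ratios. On library size alone the median log2 over all genes was 0.83 rather than −0.17, and Ezh1 stood at −0.19 (adjusted p = 0.455, edgeR). Its call was also lost with Input thinned to the depth of m5C-IP (−0.20, adjusted p = 0.594).

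The other core subunits were lower by similar amounts. Suz12 had 329, 324 and 324 CPM in Input and 163, 172 and 115 CPM in m5C-IP (log2 −2.10 ± 0.11, adjusted p = 4.82e-11, edgeR). Eed had 204, 198 and 203 CPM in Input and 80.3, 95.2 and 72.6 CPM in m5C-IP (log2 −2.26 ± 0.12). Rbbp4, the histone chaperone subunit, had 155, 152 and 153 CPM in Input and 50.7, 37.4 and 47.3 CPM in m5C-IP. Its log2 of −2.75 ± 0.15 (adjusted p = 1.12e-10, edgeR) lay beside that of Ezh2, and none of these 3 genes had overlapping groups. Suz12 stayed lower in m5C-IP with an offset for GC content, at −1.04 with exonic GC and −1.89 with that of the whole span.

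The accessory subunits held both the strongest and the weakest evidence. Jarid2, the most abundant of the 9 in CPM, had 1235, 1222 and 1224 CPM in Input and 534, 442 and 520 CPM in m5C-IP (log2 −2.28 ± 0.06, adjusted p = 5.98e-14, edgeR). Mtf2 had 510.4, 492 and 511 CPM in Input and 190.1, 185 and 213 CPM in m5C-IP (log2 −2.33 ± 0.08). Neither gene had overlapping groups, and Mtf2 stood at −1.27 with the offset for exonic GC content and at −2.12 with that of the whole span. Aebp2 had 102.5, 106 and 99.1 CPM in Input and 95.1, 100.3 and 150.3 CPM in m5C-IP. Its groups overlapped, and its log2 of −0.79 ± 0.14 (adjusted p = 9.32e-05, edgeR) turned to 0.22 (adjusted p = 0.231) on library size alone. With Input thinned to the depth of m5C-IP it stood at 0.59 (adjusted p = 0.0560, edgeR), above the median of 0.15 over the genes then tested.

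Phf19, a Polycomb-like gene, was the exception among the 9 and the least well measured. It had 45, 76 and 85 counts in the Input libraries, or 1.55, 2.30 and 2.45 CPM, and 5, 16 and 1 counts in m5C-IP, or 10.6, 27.2 and 1.69 CPM. Replicates 1 and 2 of m5C-IP lay above every Input library and replicate 3 lay among them. The log2 IP/Input was 1.68 ± 0.58 (adjusted p = 0.0147, edgeR), and without m5C-IP replicate 2 it was 0.48 (adjusted p = 0.563). Leaving out any 1 Input library also ended the call, as did a block on the replicate number (1.46, adjusted p = 0.0661). Protein-coding genes under 10 Input CPM, to which Phf19 belongs in mESC, had a median log2 IP/Input of 2.82, and 69.3% of the 6771 tested were higher. Genes of low Input could pass the filter through their m5C-IP counts, and how far this raised both values was not tested. Beyond the tests, 6 of the 9 genes had m5C-IP CPM below every Input library, against 27.6% of all genes tested.

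**Figure D3:**
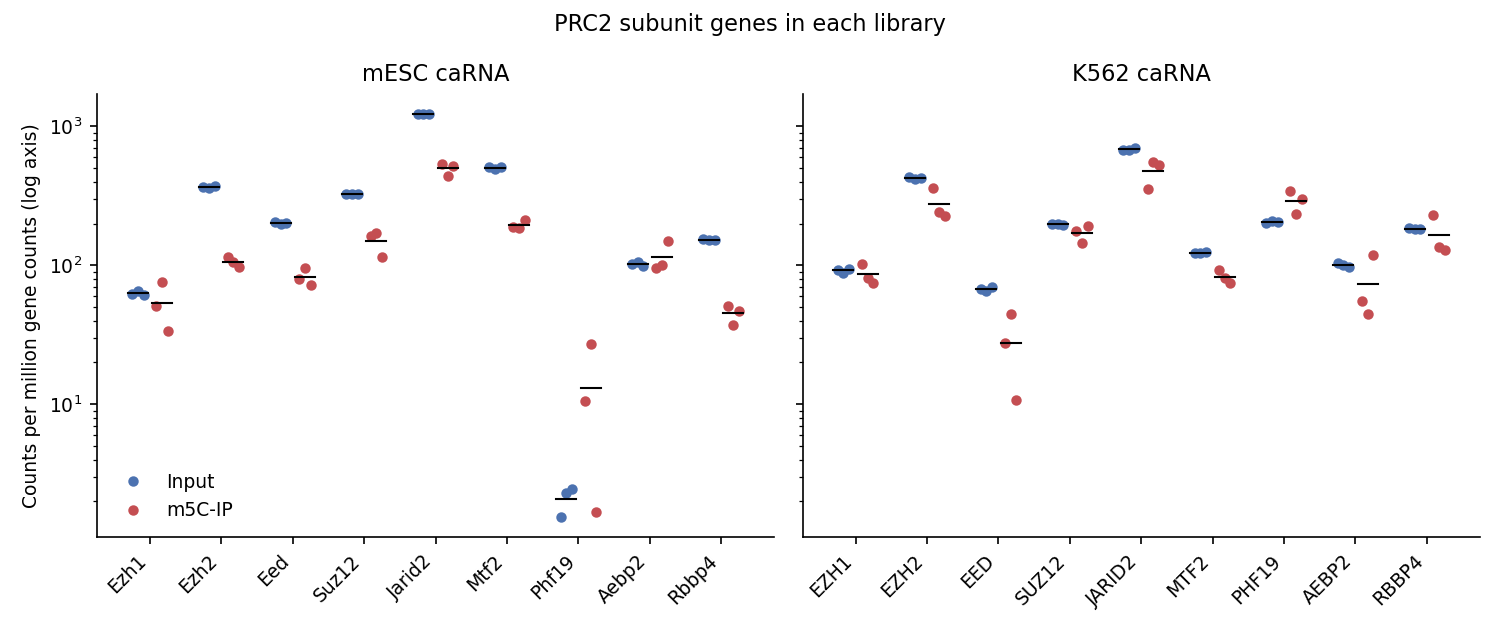
CPM of the 9 PRC2 genes in every library of mESC (left) and K562 (right) on a log axis; Input is blue, m5C-IP is red, and black lines mark means of 3 libraries. In mESC the m5C-IP points of Ezh2, Eed, Suz12, Jarid2, Mtf2 and Rbbp4 lie below their Input points, and those of Phf19 spread from 1.69 to 27.2 CPM.

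In K562, 5 of the 9 genes were lower in m5C-IP than in Input, none was higher, and 4 did not pass the test. The background was 16.4% of 14522 genes lower and 15.1% higher, with a median log2 of −0.16 and 47.9% of calls higher (70.2% on library size alone). The median over the 9 was −0.72, and over the 4759 protein-coding genes with at least 50 Input CPM, which all 9 are in K562, it was −0.50 with 40.7% lower. Counts in m5C-IP were few, from 1 to 62 per gene and library, and p-values rest on them.

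EZH2 had 431, 421 and 427 CPM in Input and 361, 243 and 225.5 CPM in m5C-IP, with no overlap (log2 −0.82 ± 0.15, adjusted p = 2.19e-06, edgeR). JARID2 had 679, 680.5 and 695 CPM in Input and 352, 557 and 526 CPM in m5C-IP, again with no overlap (log2 −0.73 ± 0.12, adjusted p = 2.38e-07, edgeR). Both calls held when the K562 Input libraries were summed into 1, and both were lost with Input thinned to the depth of m5C-IP (adjusted p = 0.164 and 0.244). EED had 67.7, 65.2 and 70.2 CPM in Input and only 3, 5 and 1 counts in m5C-IP, or 27.8, 44.9 and 10.7 CPM. Its log2 was −1.44 ± 0.40 (adjusted p = 0.00235, edgeR), the lowest of the 9 in this line, and −1.09 without m5C-IP replicate 3 (adjusted p = 0.0574). The call was also lost with the offset for exonic GC content (−0.96, adjusted p = 0.0796), and EED did not pass the filter on low counts with thinned Input.

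MTF2 and AEBP2 passed less firmly. MTF2 had 123, 123 and 125 CPM in Input and 92.65, 80.9 and 75.2 CPM in m5C-IP (log2 −0.78 ± 0.26, adjusted p = 0.0116, edgeR). It lost the call with summed Input (adjusted p = 0.0720) and with the offset for GC content (log2 −0.30, adjusted p = 0.449), and also without m5C-IP replicate 2 (0.0623) or 3 (0.0710). The same held on library size alone (0.159), with the span GC offset (0.429) and with thinned Input (0.861). AEBP2 had 103, 100.4 and 97.6 CPM in Input and 55.6, 44.9 and 118 CPM in m5C-IP, where 1 library lay above Input (log2 −0.72 ± 0.28, adjusted p = 0.0381, edgeR). Its call was lost with summed Input (adjusted p = 0.164), under the replicate block (0.0740) and in DESeq2 (0.0986). In edgeR it was also lost with RLE, another scaling (0.108), on library size alone (0.272) and with thinned Input (0.493). The offsets for exonic GC content (0.372) and span GC content (0.173) ended it as well. Leaving out Input replicate 1 (0.0589) or m5C-IP replicate 1 (0.220) or 2 (0.320) ended it too.

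The 4 genes that did not pass were EZH1, SUZ12, RBBP4 and PHF19. EZH1 had 92.8, 88.6 and 94.6 CPM in Input and 102, 80.9 and 75.2 CPM in m5C-IP, with log2 −0.30 and a 95% interval from −0.82 to 0.23. SUZ12 had 197, 198.5 and 196 CPM in Input and 176, 144 and 193 CPM in m5C-IP (log2 −0.42, interval −0.80 to −0.05, adjusted p = 0.0777, edgeR). RBBP4 had 185, 184 and 181 CPM in Input and 232, 135 and 129 CPM in m5C-IP (log2 −0.35, interval −0.73 to 0.04), and it passed without m5C-IP replicate 1 (−0.68, adjusted p = 0.0349, edgeR). PHF19 was the only gene of the 9 with every m5C-IP library above Input, at 343, 234 and 301 CPM against 201, 207 and 203.5 CPM. Its log2 was 0.31 ± 0.16 (adjusted p = 0.133, edgeR). It passed on library size alone at 0.58 (adjusted p = 0.00401) and in DESeq2 at 0.41 (adjusted p = 0.0244), and it stood at −0.04 in the fit with no filter on low counts. With the offset for exonic GC content it stood at 0.0055 (adjusted p = 0.986) and with that for span GC content at 0.04 (adjusted p = 0.892). In 5 of the 9 genes the m5C-IP CPM lay below every Input library, against 24.4% of genes tested.

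**Figure D4:**
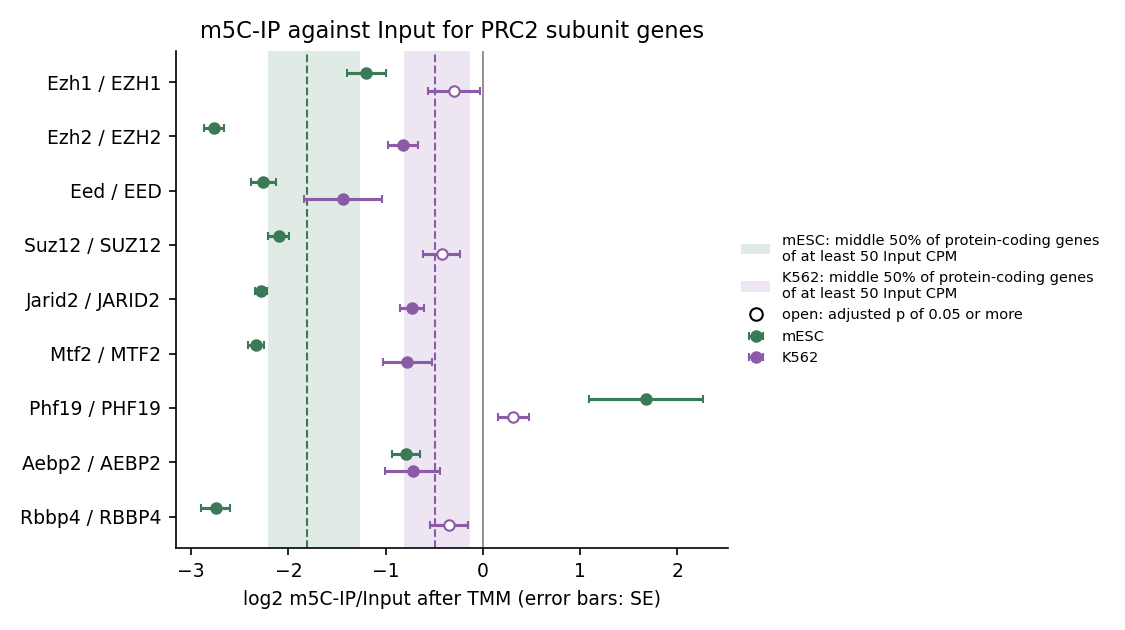
log2 m5C-IP/Input after TMM scaling for the 9 genes in mESC (green) and K562 (purple), with the SE as error bars; filled points passed an adjusted p of 0.05. Shaded bands hold the middle 50% of protein-coding genes with at least 50 Input CPM, and dashed lines their medians of −1.81 in mESC and −0.50 in K562. Ezh2, Rbbp4, Mtf2, Jarid2 and Eed lie left of the mESC band, and Phf19 lies right of the band of each line.

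Whether IP/Input differed between the lines was tested directly, in 1 fit over the 12 libraries with a term for line and kind together. Of the 9 genes, 5 had a higher IP/Input in K562 and Phf19 had a lower one, against a background of 16.6% of 14242 genes higher and 14.5% lower (53.4% of calls higher, 39.9% on library size alone). Of the 5, Rbbp4 differed most, by 1.77 ± 0.32 on the log2 scale (adjusted p = 6.68e-05, edgeR), followed by Ezh2 at 1.32 ± 0.24 (adjusted p = 6.91e-05). Suz12 differed by 1.05 ± 0.28 (adjusted p = 0.00523), Jarid2 by 0.92 ± 0.17 (adjusted p = 0.000126) and Mtf2 by 0.93 ± 0.36 (adjusted p = 0.0485, edgeR). With Input thinned to the depth of m5C-IP only Ezh2 and Rbbp4 kept their calls. Suz12 then stood at 0.83 (adjusted p = 0.0909, edgeR) and Jarid2 at 0.47 (adjusted p = 0.113). The offset for span GC content ended the calls for Jarid2 (0.40, adjusted p = 0.0869, edgeR) and Mtf2 (0.78, adjusted p = 0.0969). The 2959 protein-coding genes with at least 50 Input CPM in both lines had a median difference of 0.64 and 34.3% of them were higher in K562, so that the 5 genes differed in the direction of the median gene of that level. The middle 50% of those genes ran from 0.07 to 1.14, and only Ezh2 and Rbbp4 lay above it.

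Phf19 had a lower IP/Input in K562 than in mESC, by −1.99 ± 0.58 (adjusted p = 0.00898, edgeR). The call rested on m5C-IP replicate 2 of mESC, since without it the difference was −0.74 and did not pass. The differences of Ezh1 (0.27, 95% interval −0.55 to 1.09), Eed (0.19, −0.97 to 1.35) and Aebp2 (−0.56, −1.37 to 0.24) did not pass, and intervals of this width leave room for differences of more than 1 log2 unit. In DESeq2 the difference of Aebp2 passed, at −1.01 (adjusted p = 0.00759). The call for Mtf2 held in 3 of the 12 fits that left out 1 library, with adjusted p up to 0.189 without m5C-IP replicate 1 of K562, and was lost when K562 Input was summed (adjusted p = 0.0816). Depth and organism go with the line and cannot be told apart from it.

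Other genes of the pathway are read against the same background in mESC, of 42% of all genes tested and 95.2% of abundant protein-coding genes lower. Of 6 further PRC2 subunit or partner genes, 5 were tested in mESC and 3 were lower: Rbbp7, the paralogue of Rbbp4, at −2.21 ± 0.16, Lcor at −1.72 ± 0.11 and Phf1, another Polycomb-like gene, at −0.67 ± 0.25. The call for Phf1 held in 1 of 6 fits without a library, and its CPM was not lower in m5C-IP (25.1 ± 3.46, against 20.5 ± 1.06 in Input, SD, n = 3). Epop stood at −0.54 and Skida1 at −0.98, neither past the test. In CPM every m5C-IP library of Epop lay above Input (25.1 ± 4.91, against 18.7 ± 0.37 in Input). In K562, 4 were tested and RBBP7 (−1.99 ± 0.51) and LCOR (−1.08 ± 0.19) were lower. RBBP7 rests on 0, 2 and 3 m5C-IP counts. PHF1 (−0.78) and SKIDA1 (2.32) did not pass. The PRC2 inhibitor gene EZHIP, AU022751 in mouse, had a count of 0 in every library, and EPOP had 1 count in K562.

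Among genes acting on the same histone residue, 3 of 4 were lower in mESC. These were the demethylase gene Kdm6a at −2.45 ± 0.13 and the acetyltransferase genes Ep300 at −2.27 ± 0.13 and Crebbp at −2.21 ± 0.10, whereas the demethylase gene Kdm6b stood at −0.17 and did not pass. In K562, KDM6A (−1.11 ± 0.15) and EP300 (−1.07 ± 0.22) were lower, and CREBBP (−0.33) and KDM6B (0.41) did not pass. Among genes whose PRC1 proteins bind the mark, Cbx7 was lower in mESC at −1.64 ± 0.10, and Cbx2 stood at −0.80 and did not pass. In K562, CBX8 was higher at 1.61 ± 0.56 from 4, 3 and 4 m5C-IP counts, in 4 of 6 fits without a library. Its mean Input was 9.98 CPM. Protein-coding genes under 10 Input CPM in K562 had a median log2 of 1.32, and 38.7% of them were higher. These values too include genes that could pass the filter through their m5C-IP counts. The medians in mESC were −0.98 over the further PRC2 genes tested and −2.24 over the demethylase and acetyltransferase genes, beside −2.26 for the 9 PRC2 genes and −0.17 for all genes. These lists differ in level. Phf1, Epop, Skida1 and Kdm6b had means of 20.5, 18.7, 4.26 and 32.6 Input CPM, whereas all of the 9 but Phf19 had at least 50. In the test between lines, none of the 5 further PRC2 genes tested passed. Kdm6a (0.71 ± 0.25, in 8 of 12 fits without a library) and Crebbp (1.25 ± 0.25) were higher in K562 on the log2 IP/Input scale. Cbx8 (−2.56 ± 0.94, in 6 of 12 fits without a library) was lower, but in mESC alone it did not pass the filter on low counts. Its mESC libraries held 6, 5 and 6 Input counts and 5, 0 and 2 m5C-IP counts.

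The genes most like Ezh2 were sought among 9972 tested in both lines, by the Euclidean distance over 4 values: log2 IP/Input and log2 Input CPM per kb of exon in each line. Nearest were Ywhaq at a distance of 0.343, Celf1 at 0.394 and Tlk1 at 0.424. Ezh2 itself stood at −2.77 and −0.82 in IP/Input and at 5.77 and 5.31 in level. Ywhaq stood at −2.92 and −1.12 in IP/Input and at 5.79 and 5.25 in level, mESC before K562.

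The deposited mESC peak lists, 1 for each m5C-IP library, held 11012, 15235 and 15630 distinct peaks, most of them 150 bp wide. None of the 9 genes held a peak shared by at least 2 replicates, on its own strand or on either strand, which 3.62% and 7.64% of the genes tested did. Across the 3 lists, 10 peaks lay inside 3 of the genes: 6 in Jarid2, 2 in Ezh1 and 2 in Aebp2. Ezh2, Eed, Suz12, Mtf2, Phf19 and Rbbp4 held none. At least 1 peak on either strand was found in 41.2% of genes tested and in 81.5% of protein-coding genes spanning at least 100 kb, as Jarid2 does with 192.2 kb. Of the 10 peaks, 8 lay in introns and 9 were recorded on the strand opposite to the gene. The recorded strand may not be that of the RNA: of exonic peaks in protein-coding genes with at least 3000 Input counts, 83.6% to 87.1% were recorded on the opposite strand, against 48.2% to 54.3% in genes under 100 counts.

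**Figure D5:**
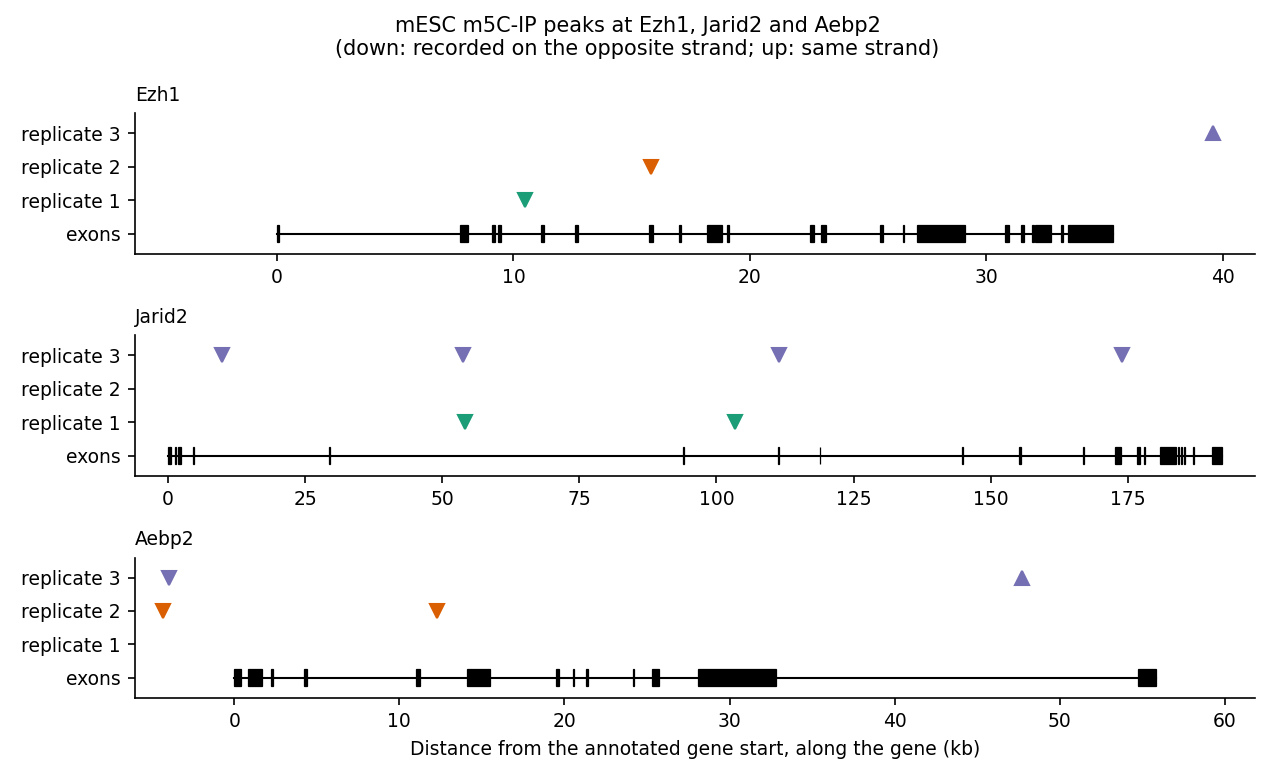
Peaks of the 3 mESC m5C-IP replicates along Ezh1, Jarid2 and Aebp2, by distance from the annotated gene start in kb; triangles pointing down were recorded on the strand opposite to the gene and those pointing up on its strand, and black boxes are exons. No 2 replicates share a position inside a gene, and the pair of peaks before Aebp2 overlaps.

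The sequences below show what these single-replicate peaks hold, read from GRCm38 (mm10) on the strand of the gene, with capitals marking CNGGG or CTCCA, motifs linked in the field to the RNA m5C enzymes NSUN2 and NSUN6. Ezh1 (chr11:101191115-101226463, minus strand) had a replicate 1 peak in an intron (chr11:101215913-101216062) and a replicate 2 peak over a coding exon (chr11:101210557-101210706). Neither holds a match on the gene's strand, and their GC content was 52.0% and 56.0%.
Ezh1 intron peak: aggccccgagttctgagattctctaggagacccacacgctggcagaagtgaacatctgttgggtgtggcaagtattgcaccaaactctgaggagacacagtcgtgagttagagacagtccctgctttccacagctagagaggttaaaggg
Ezh1 coding exon peak: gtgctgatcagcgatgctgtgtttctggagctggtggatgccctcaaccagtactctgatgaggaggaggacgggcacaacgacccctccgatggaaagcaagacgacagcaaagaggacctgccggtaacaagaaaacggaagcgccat

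In Jarid2 (chr13:44729474-44921643, plus strand), the nearest approach of different replicates was a pair of intron peaks separated by 274 bp. Replicate 3 had chr13:44783149-44783298 and replicate 1 had chr13:44783573-44783722. Repeats masked in the reference took 78.7% and 74.0% of their bases.
Jarid2 intron peak, replicate 3: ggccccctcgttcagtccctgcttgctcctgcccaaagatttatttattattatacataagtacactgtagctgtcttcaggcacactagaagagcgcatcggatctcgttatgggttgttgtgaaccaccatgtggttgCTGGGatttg
Jarid2 intron peak, replicate 1: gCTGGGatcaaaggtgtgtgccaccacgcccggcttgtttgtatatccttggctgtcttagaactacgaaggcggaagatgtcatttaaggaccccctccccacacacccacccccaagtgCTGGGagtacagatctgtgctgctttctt

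Aebp2 (chr6:140622663-140678472, plus strand) held the 1 peak recorded on its gene's own strand, from replicate 3 (chr6:140670311-140670460), a run of short repeated units with 36.7% C. About 4 kb before the gene start lay the only stretch within 5000 bp of any of the 9 genes that peaks of different replicates shared, 118 bp from replicates 2 and 3 (chr6:140618427-140618544), all of it masked as a repeat and recorded on the opposite strand.
Aebp2 intron peak: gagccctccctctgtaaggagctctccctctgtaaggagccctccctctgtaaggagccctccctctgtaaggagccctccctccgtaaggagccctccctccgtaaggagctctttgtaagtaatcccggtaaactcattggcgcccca
Aebp2 upstream stretch: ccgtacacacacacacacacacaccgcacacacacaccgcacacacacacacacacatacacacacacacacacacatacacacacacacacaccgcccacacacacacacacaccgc

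Searched on both strands, CNGGG occurred in 7 of the 10 peaks inside the genes and in 70.3% of all 30593 distinct peaks of 150 bp. CTCCA occurred in 2 of the 10 and in 35.9% of all. The median GC content was 49.6% in the 10 peaks and 50.7% in all. The share of peaks with CNGGG at PRC2 genes was thus close to that of all peaks, and no test was run on 10 peaks.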

How the data were processed

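The authors deposited read counts per gene for each library and, for mESC m5C-IP, peak lists with positions and no usable score (unit other). Submitters' notes name Trimmomatic 0.39, HISAT2 2.1.0, SAMtools 1.16.1, MACS2, mm10 and hg38; the study's RNA-seq methods name HTSeq for genes and featureCounts for caRNAs, but its m5C methods name no counter, and the strand setting is not given in the sources used here. Libraries were made with a stranded kit. Spike-in RNAs were added but are not used here, so values are relative within a library. Summary lines (19.0% to 71.7% of records) and rows naming no gene stayed out of library sizes. Positions, lengths and GC came from GENCODE M21 (GRCm38) and 44 (GRCh38), later releases than the study names, matching 99.9% and 99.2% of identifiers.

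All genes entered one quasi-likelihood fit per comparison (edgeR 4.0.16, R 4.3.3), after filterByExpr and TMM scaling within each line, with a Benjamini-Hochberg threshold of 0.05. The filter was applied to Input and m5C-IP libraries together. The SE is the log2 fold change over the square root of F, and 95% intervals assume normality. The line difference was fitted over symbols shared by both species. Scripts were tested on simulated data: of 200 genes changed by 4-fold, 200, 200 and 192 were recovered in mESC (15555 genes), K562 (13508 genes) and the difference (11937 genes), with 4.76%, 4.76% and 2.54% of calls false. The changed genes were drawn only from those above a minimum mean m5C-IP count, with 1 common spread for all genes. Recovery of genes with few m5C-IP counts, such as EED in K562, was thus not tested. Far fewer genes changed than were called in the data, so scaling under such wide change was not tested either. Exact permutation tests used scipy 1.17.1. Identical peak lines were merged, and an overlap of 1 bp was required. CPM floors cover counting error only. Reads aligned more than once stand in a summary line, so genes with near-identical copies are uncertain, and opposite-strand neighbours (Tmed5 at Mtf2, Sync at Rbbp4) overlap little.

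Members and lists were chosen with earlier results of these data known. Named were all 9 members, the genes of the other lists (some items are not reported here), the 3 genes nearest to Ezh2 and peaks in members; single-replicate peaks were added after their values were seen. Alternatives comprised other scaling, DESeq2 1.42.0, no filter, GC offsets over exons or spans, Input thinned to m5C-IP depth, a replicate block, each library left out, and summed K562 Input; span GC, summed Input, joint TMM and principal transcript spans were chosen after seeing the data.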

Additional observations from a re-analysis of the deposited data

Results flagged for a closer look

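In 6 of the 9 PRC2 genes the m5C-IP/Input ratio differed between the lines by the interaction test (edgeR, adjusted p under 0.05). On the log2 scale, K562 minus mESC, Rbbp4 differed by 1.77, Ezh2 by 1.32, Suz12 by 1.05, Jarid2 by 0.921, Mtf2 by 0.927 and Phf19 by −1.99. The mESC m5C-IP libraries hold 473398 to 592324 gene counts and the K562 ones 93110 to 111286. With Input thinned to m5C-IP depth, 2 of the 9 differences were called.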

How the results depend on the processing

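In mESC, 9 of 9 genes were called and other settings gave 6 to 9, the 6 being of 8 tested with thinned Input. In K562, 5 were called and other settings gave 1 to 7. For the difference between lines 6 were called and other settings gave 2 to 6. These counts take both directions together. In K562 the main fit called 5 lower, whereas RLE scaling and DESeq2 each called 4 lower and PHF19 higher. Leaving out 1 library gave 8 to 9, 3 to 5 and 4 to 6. In K562 the count fell to 2 with the GC offset, 3 with the span GC offset, 3 with summed Input and 1 of 7 tested (PHF19, higher) with Input thinned to m5C-IP depth; for the difference it fell to 2 with thinned Input. With a replicate block 8, 4 and 6 genes were called. Deviations of same-numbered libraries correlated weakly, at 0.0026 to 0.0308, yet each Input library was highest with its own number (6 of 6). These values do not settle whether same-numbered libraries came from the same material. Library size scaling moved the median log2 of all genes from −0.17 to 0.83 in mESC and from −0.16 to 0.11 in K562, and the share of calls that were higher from 48.7% to 67.9% and from 47.9% to 70.2%; for the difference between lines these were 0.17 to −0.15 and 53.4% to 39.9%. With thinned Input the shares were 60.8%, 68.5% and 41.0%. Values that changed sign were Aebp2 in mESC (0.22 on library size, 0.59 thinned), PHF19 in K562 (−0.0365 with no filter), SUZ12 (0.0641 with the GC offset, 0.31 thinned), RBBP4 (0.31 thinned) and, for differences that were never called, Ezh1 (−0.0441 on library size, −0.17 in DESeq2, −0.28 with the GC offset, and −0.0015 to 0.658 without 1 library) and Eed (−0.13 on library size, −0.25 in DESeq2, −0.56 thinned, and −0.344 to 0.520 without 1 library); the cause was not tested. The Ezh1 share kept its direction on every length (2.94 to 11.6 points between lines, 17.1 to 22.9 within mESC, 6.58 to 8.12 within K562) and, per kb of exon, without any 1 library (11.3 to 11.9, 12.7 to 20.6 and 7.16 to 8.98), and no alternative gave a member gene a shared peak. Counts of 1 to 62 per gene in K562 m5C-IP limit that line most.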
